A study of Mus musculus with 8 samples.

Results

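A set of 8 genes linked with the primary granules of granulocytes were followed across 32D cells with or without the glucose transporters GLUT1 and GLUT3: Mpo, Elane, Prtn3, Ctsg, Lyz2, Prg2, Ms4a3 and Cst7. They were chosen by gene name, and all 8 were found among the 56748 genes of the deposited table. Of these, Prtn3, Lyz2, Prg2 and Cst7 passed a filter on low values, which asked for an FPKM (fragments per kilobase of gene, scaled to the depth of the library) of 1 or more in 2 or more of the 8 libraries, as did 11818 of all genes. The other 4, Mpo, Elane, Ctsg and Ms4a3, stayed below an FPKM of 0.282 in every library. Mpo, Elane and Ctsg encode the contents by which primary granules are usually recognised, so at the RNA level most of the set's defining genes were at or near 0 in these cells. The values below therefore rest mainly on the 4 genes that passed, of which only Prtn3 and Lyz2 encode usual primary granule contents.

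32D is a mouse myeloid cell line that grows in interleukin-3 (IL-3), and the labels describe it as myeloblast-like. All cells had been transduced with murine Jak2WT or Jak2V617F, the activating mutant found in myeloproliferative neoplasms. Within each Jak2 background, clones were either GLUT1/3 WT or GLUT1/3 dKO, the latter edited with CRISPR-Cas9 in both Slc2a1 (GLUT1) and Slc2a3 (GLUT3). The 4 groups were Jak2WT GLUT1/3 WT, Jak2WT GLUT1/3 dKO, Jak2V617F GLUT1/3 WT and Jak2V617F GLUT1/3 dKO, each with 2 clones (clone 1 and clone 3) and 1 library per clone. Each clone grew from a single cell, so the spread between clones includes clonal differences. The paper describes a single-cell dilution before editing too. It lists the same size of Slc2a1 deletion for all dKO clones of a background. Clones of a group may therefore share an ancestor. Differences between groups cannot be told apart from differences between such founder cells. Every clone was kept for 24 h in RPMI with 5 mM glucose, 1 mM glutamine, 10% serum and 2 ng/ml IL-3 before RNA was taken.

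Primary, or azurophil, granules are the first granules made as a granulocyte precursor matures. They hold myeloperoxidase, which makes hypochlorous acid, and serine proteases that cathepsin C must cut before they are active. Their genes are switched on at the promyelocyte stage by factors such as C/EBPα, PU.1, RUNX1 and MYB, and they are switched off again before the secondary granules, with lactoferrin, are made. Eosinophils instead pack major basic protein and eosinophil peroxidase into their specific granules.

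Reads on genes ranged from 16846011 to 48884329 per library, and the 8 genes held 0.00451% to 0.0116% of them. As a check of the labels, Slc2a1 was at an FPKM of 9.17 to 17.3 in the 4 dKO libraries against 44.7 to 64.0 in the 4 GLUT1/3 WT libraries, and Slc2a3 at 16.0 to 49.5 against 91.9 to 198. Scaling every library to the same total FPKM moved the median log2 fold change of all genes from 0.0076 to -0.12 between the backgrounds among the GLUT1/3 WT clones, and from -0.039 to 0.12 in the difference between the dKO comparisons. That scaling also moved the share of calls that were higher, from 55.7% to 33.9% for dKO in Jak2WT, from 45.7% to 60.2% for dKO in Jak2V617F, from 50.7% to 29.4% for Jak2V617F among GLUT1/3 WT clones and from 44.4% to 75.0% for the difference between the dKO comparisons. With voom on recovered reads the same shares were 39.1%, 59.2%, 34.5% and 69.7%.

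Prtn3 and Elane are neighbours of one gene cluster, and their promoters are shown because 1 gene of the pair was read in every library and the other was almost silent. In GRCm39, Prtn3 (ENSMUSG00000057729) lies on chromosome 10 (79710310 to 79719008, forward strand), and Elane (ENSMUSG00000020125) follows on the same strand from 79722081 to 79724049, 3072 bases further on. The stretches below come from the RefSeq promoter table (GRCm38.p6). They start 250 bases before the RefSeq transcription start and end before the first annotated exon base inside those 250 bases. They lie at chr10:79879417-79879613 for Prtn3 and chr10:79886062-79886246 for Elane, both forward strand. Another annotated Prtn3 transcript has an exon further upstream of the Prtn3 stretch. Capitals mark GAGGAAG, letters bound by PU.1, the only one of the 4 searched motifs with a match inside these stretches.
Prtn3: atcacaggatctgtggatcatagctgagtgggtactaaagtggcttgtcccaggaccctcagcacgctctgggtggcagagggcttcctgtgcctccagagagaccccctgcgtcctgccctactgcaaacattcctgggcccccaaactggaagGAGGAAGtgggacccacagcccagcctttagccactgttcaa
Elane: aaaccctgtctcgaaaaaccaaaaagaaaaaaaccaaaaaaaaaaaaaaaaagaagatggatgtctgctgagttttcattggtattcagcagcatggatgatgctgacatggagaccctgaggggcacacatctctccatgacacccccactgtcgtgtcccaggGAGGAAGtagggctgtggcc
The PU.1 letters began 95 bases before the start of Prtn3 and 85 bases before that of Elane.

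Promoters were found for 7 of the 8 genes, and the name Prg2 had no entry. Each promoter was read from 250 bases before to 50 bases after the start, on both strands, for TTNNGCAA (C/EBP), GAGGAAG (PU.1), TGTGGT (RUNX) and TAACNG (MYB). PU.1 letters stood in the promoters of Mpo, with 2 matches, and of Elane, Prtn3 and Ctsg, with 1 each, against 13.6% of all 32851 promoters in the table. C/EBP letters stood in those of Ms4a3 and Cst7 (10.8% of all promoters), RUNX letters in those of Ctsg, Lyz2 and Cst7 (16.8%), and MYB letters in those of Mpo and Elane (23.3%). Such matches describe the sequence and not binding, and the 3 near-silent granule genes Mpo, Elane and Ctsg held the PU.1 letters as the measurable Prtn3 did.

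Mpo (chromosome 11, 87684407 to 87695239, forward strand) encodes myeloperoxidase, the most abundant protein of primary granules. Its FPKM was 0.0885 and 0.0842 in Jak2WT GLUT1/3 WT clones 1 and 3, 0.0102 and 0.0652 in the Jak2WT dKO clones, 0 in both Jak2V617F GLUT1/3 WT clones and 0.0252 and 0.0579 in the Jak2V617F dKO clones. These values stand for 37 reads over the whole series, 29 of them from the Jak2WT background. Over the 8 libraries, 3 reads of Mpo were worth an FPKM of 0.0178 to 0.0505, depending on depth. A library with 0 reads still allows a level up to its own such value, for counting error only. So Mpo was highest in the Jak2WT GLUT1/3 WT clones, but at a level that 1 to 12 reads per library define.

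Elane (neutrophil elastase) and Ctsg (cathepsin G, chromosome 14, 56337338 to 56340031, reverse strand) encode serine proteases of the same granules. Elane had 8 reads in 4 of the 8 libraries, and no library exceeded an FPKM of 0.121, that of Jak2V617F dKO clone 3. Ctsg also had 8 reads, 6 of them in Jak2WT dKO clone 1 at an FPKM of 0.203 and 2 in Jak2WT GLUT1/3 WT clone 1 at 0.0489, and it was at 0 in the other 6 libraries. No order of the groups could be detected at this depth for either gene.

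Ms4a3 (chromosome 19, 11606860 to 11618215, reverse strand) encodes a membrane protein that marks granulocyte and monocyte progenitors and is not itself a granule content. Its FPKM was 0.281 and 0.245 in Jak2WT GLUT1/3 WT clones, 0.186 and 0.0646 in the Jak2WT dKO clones, 0 in both Jak2V617F GLUT1/3 WT clones, and 0.122 and 0.0631 in the Jak2V617F dKO clones. Of its 56 reads, 45 came from the Jak2WT background and 11 from the Jak2V617F background. With no filter on low values, Ms4a3 was lower in Jak2V617F than in Jak2WT among the GLUT1/3 WT clones by limma, with a log2 fold change of FPKM + 1 of -0.34 ± 0.06 (SE) and an adjusted p of 0.0245. Mpo missed the threshold in the same fit, at -0.12 ± 0.03 (SE) and an adjusted p of 0.0698.

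**Figure D1:**
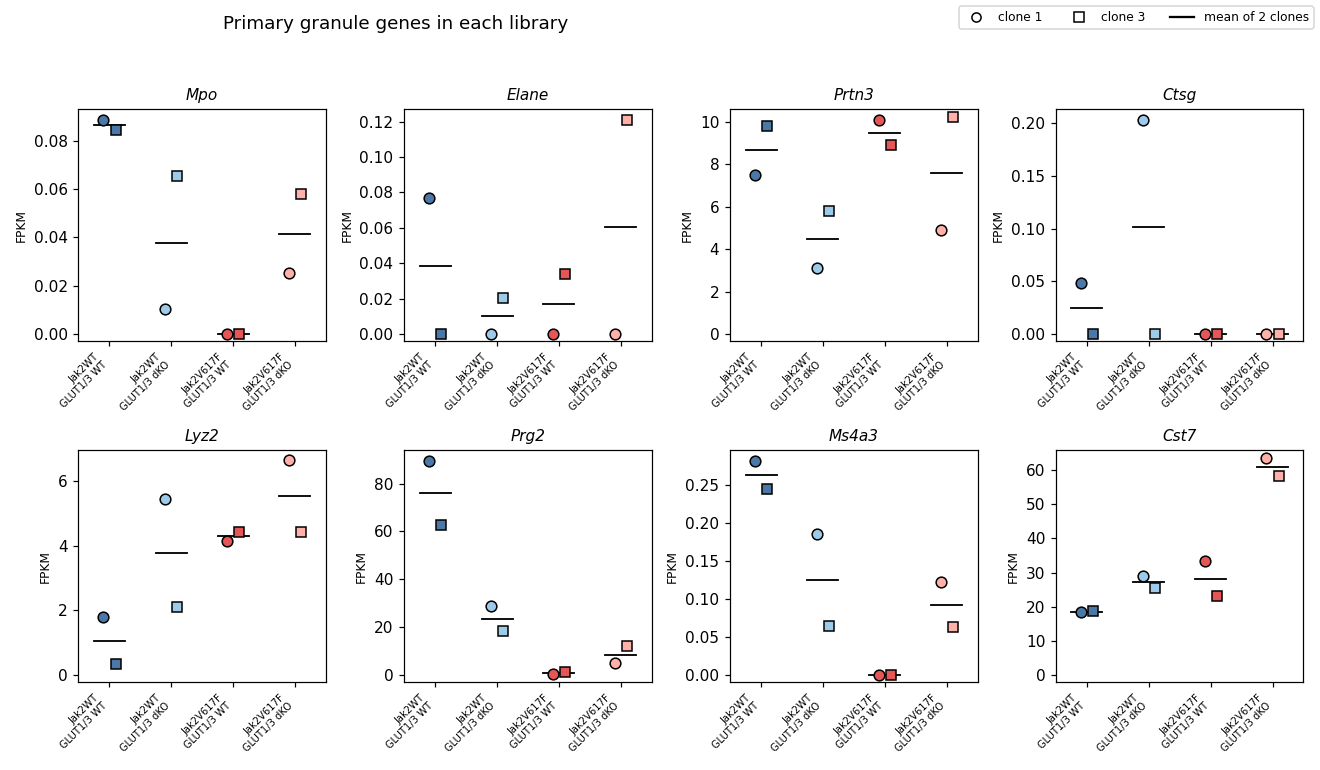
FPKM of the 8 genes (y axes, one scale per gene, each including 0) in the 4 groups (x axis); circles are clone 1, squares clone 3 and bars the mean of the 2 clones. Mpo, Elane, Ctsg and Ms4a3 stay below 0.282 throughout, Prg2 is highest in the Jak2WT GLUT1/3 WT clones at 62.7 and 89.4, and Cst7 is highest in the Jak2V617F dKO clones at 58.2 and 63.5.

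Prtn3 encodes proteinase 3, a serine protease of the elastase family, and was the only protease of the set with a measurable level. It stood at an FPKM of 7.49 and 9.82 in Jak2WT GLUT1/3 WT clones, 3.11 and 5.80 in the Jak2WT dKO clones, 10.1 and 8.89 in the Jak2V617F GLUT1/3 WT clones, and 4.92 and 10.2 in the Jak2V617F dKO clones. The 2 Jak2WT dKO clones lay below both Jak2WT GLUT1/3 WT clones, whereas the 2 Jak2V617F dKO clones lay on either side of their controls. Ordered by mean, the groups ran from Jak2WT dKO (4.46 ± 1.90, SD, n = 2) over Jak2V617F dKO (7.57 ± 3.76) and Jak2WT GLUT1/3 WT (8.66 ± 1.64) to Jak2V617F GLUT1/3 WT (9.49 ± 0.84), and every group overlapped with the next. Prtn3 passed the threshold in none of the comparisons by limma, which adjusted p over 11818 genes. Its log2 fold change of FPKM + 1 for dKO was -0.86 (95% interval -1.63 to -0.08, adjusted p = 0.125) in Jak2WT and -0.36 (-1.14 to 0.41, adjusted p = 0.446) in Jak2V617F.

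Which Prtn3 transcript was read cannot be seen from a value per gene. The listed length of 1732 bases equals the union of the exons of all 7 transcripts in GENCODE vM39, while the transcript from 79715448 to 79719008 has 1025 bases. Another transcript starts 5138 bases earlier with an exon from 79710310 to 79710555. In all, 197 exon bases of Prtn3 (11.4%) also lie in exons of Plppr3 on the opposite strand. The strand setting of the counting is not given in the sources used here, so that reads from this overlap could belong to either gene. Plppr3 itself was at a mean FPKM of 0.740 to 1.22 per group.

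Lyz2 encodes lysozyme M, which cleaves bacterial cell walls and is made by neutrophils and macrophages alike. Its FPKM was 1.78 and 0.350 in Jak2WT GLUT1/3 WT clones, 5.45 and 2.10 in the Jak2WT dKO clones, 4.15 and 4.44 in the Jak2V617F GLUT1/3 WT clones, and 6.65 and 4.43 in the Jak2V617F dKO clones. The Jak2WT GLUT1/3 WT clones were thus the lowest of the 8, and the 3 other groups overlapped with their neighbours in the order of means. Among GLUT1/3 WT clones Lyz2 was higher in Jak2V617F, by 1.45 ± 0.42 (SE) on the log2 scale of FPKM + 1 with an adjusted p of 0.0365. The ratio of the mean FPKM was 4.02, and it was 12.3 without Jak2WT GLUT1/3 WT clone 1 and 2.41 without clone 3 of that group. That call was lost without Jak2WT GLUT1/3 WT clone 3, which had 8 reads of Lyz2 (0.93, adjusted p = 0.182), and without either Jak2V617F GLUT1/3 WT clone (adjusted p = 0.112 and 0.118).

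Loss of GLUT1/3 gave a Lyz2 log2 fold change of 1.21 (95% interval 0.23 to 2.18, adjusted p = 0.0976) in Jak2WT and 0.28 (-0.70 to 1.26, adjusted p = 0.643) in Jak2V617F. Neither passed the threshold. Lyz2 (chromosome 10, 117113236 to 117118226, reverse strand) has a paralog, Lyz1, 5475 bases away on the same strand. Of the 31-base stretches in annotated Lyz2 transcripts, 13.4% also occur in those of Lyz1, so the split of reads between the genes is uncertain, although only 6 reads in all, 2 in Jak2V617F GLUT1/3 WT clone 1 and 4 in Jak2V617F dKO clone 1, were counted on Lyz1.

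Prg2 showed the widest range of the set. It encodes eosinophil major basic protein, the cytotoxic core of eosinophil specific granules, and lies on chromosome 2 (84810805 to 84813976, forward strand). The Jak2WT GLUT1/3 WT clones 1 and 3 held an FPKM of 89.4 and 62.7, and the Jak2WT dKO clones held 28.7 and 18.4. In the Jak2V617F background the GLUT1/3 WT clones were at 0.334 and 1.40, from 6 and 35 reads, and the dKO clones at 4.91 and 12.2. No group overlapped with another, and dKO moved the backgrounds in opposite directions, down in Jak2WT and up in Jak2V617F, so that the dKO groups lay between the GLUT1/3 WT groups.

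For Jak2V617F against Jak2WT among GLUT1/3 WT clones, the Prg2 log2 fold change was -5.41 ± 0.43 (SE, adjusted p = 0.000448), and the mean FPKM was 87.7-fold lower in Jak2V617F. The size rests on few reads, since the mean was 54.3-fold lower without Jak2V617F GLUT1/3 WT clone 1 and 228-fold lower without clone 3 of that group. The call stayed past the threshold in all 17 alternatives tried. Loss of GLUT1/3 raised Prg2 in Jak2V617F by 2.30 ± 0.43 (SE, adjusted p = 0.00826), a 9.84-fold difference in mean FPKM, and the call again held in all 17 alternatives. That fold was 6.09 and 25.5 without Jak2V617F GLUT1/3 WT clones 1 and 3, and 5.66 without Jak2V617F dKO clone 3. In Jak2WT, Prg2 fell with dKO (-1.66 ± 0.43, SE, adjusted p = 0.0456), 3.23-fold by mean FPKM. This call was marginal, since it was lost without any 1 of the 4 Jak2WT libraries, with adjusted p of 0.111 to 0.209, and with the clone number as a block (adjusted p = 0.0602). The difference between the dKO comparisons was itself past the threshold, at 3.96 ± 0.61 (SE, adjusted p = 0.0156), but was lost without Jak2WT GLUT1/3 WT clone 1 or clone 3 or Jak2WT dKO clone 1, with adjusted p of 0.0551 to 0.0623. Among dKO clones Prg2 was at -1.44 (95% interval -2.46 to -0.43, adjusted p = 0.0611) in Jak2V617F against Jak2WT. Without Jak2V617F dKO clone 3 this became -2.02 with an adjusted p of 0.0226.

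**Figure D2:**
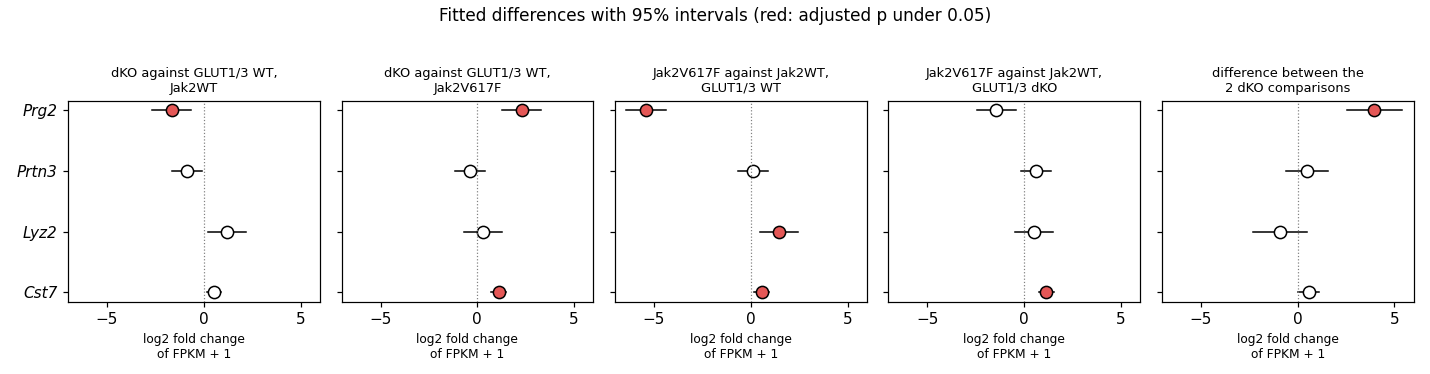
Log2 fold change of FPKM + 1 (x axis) with its 95% interval for Prg2, Prtn3, Lyz2 and Cst7 (y axis) in 4 comparisons and in the difference between the 2 dKO comparisons; filled red points have an adjusted p under 0.05. Prg2 is at -1.66 for dKO in Jak2WT and at 2.30 for dKO in Jak2V617F, while Prtn3 has no filled point.

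Cst7 encodes cystatin F, a secreted and lysosomal inhibitor of cysteine proteases that blocks cathepsin C, the activator of the granule serine proteases. It lies on chromosome 2 (150412335 to 150420864, forward strand) and had 319 to 2177 reads per library. Its FPKM was 18.5 and 18.6 in Jak2WT GLUT1/3 WT clones, 28.9 and 25.4 in the Jak2WT dKO clones, 33.5 and 23.0 in the Jak2V617F GLUT1/3 WT clones, and 63.5 and 58.2 in the Jak2V617F dKO clones. Both Jak2V617F dKO clones lay above all 6 other libraries and both Jak2WT GLUT1/3 WT clones below them, with overlap only between the 2 middle groups.

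Loss of GLUT1/3 raised Cst7 in Jak2V617F by 1.10 ± 0.16 (SE, adjusted p = 0.00323), 2.16-fold by mean FPKM. Among dKO clones Cst7 was 2.24-fold higher in Jak2V617F than in Jak2WT, with a log2 fold change of 1.14 ± 0.16 (SE, adjusted p = 0.00489). Both calls held in all 17 alternatives. In Jak2WT the dKO difference was 0.52 (95% interval 0.14 to 0.90, adjusted p = 0.0730), which passed the threshold when only the 2 groups compared were fitted (adjusted p = 0.0232) or without Jak2V617F GLUT1/3 WT clone 1 or clone 3 (adjusted p = 0.0226 and 0.0224). Among GLUT1/3 WT clones Cst7 was higher in Jak2V617F by 0.56 ± 0.16 (SE, adjusted p = 0.0381), a call that was lost in 8 of 17 alternatives. These included leaving out Jak2WT GLUT1/3 WT clone 1 or 3, Jak2WT dKO clone 1 or 3, or Jak2V617F GLUT1/3 WT clone 1, which left 0.29 in the last case. The dKO difference of Cst7 did not differ between the backgrounds past the threshold (0.58, 95% interval 0.04 to 1.12, adjusted p = 0.142), although it did after scaling to the same total (0.77, adjusted p = 0.0405), by voom (0.78, adjusted p = 0.0329) and without Jak2V617F GLUT1/3 WT clone 1 (0.84, adjusted p = 0.0424).

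Counted by comparison, dKO in Jak2WT gave 0 of the 4 genes tested higher and 1 lower (Prg2), where 7.62% and 6.06% of the 11818 genes tested were called higher and lower. For dKO in Jak2V617F the set gave 2 higher (Prg2 and Cst7) and 0 lower, beside 13.7% and 16.2% of all genes. Jak2V617F against Jak2WT gave 2 higher (Lyz2 and Cst7) and 1 lower (Prg2) among GLUT1/3 WT clones, beside 15.3% and 14.9% of all genes. Among dKO clones the same contrast gave 1 higher (Cst7) and 0 lower, beside 7.12% and 9.96%. The difference between the dKO comparisons was called for 1 gene, Prg2, higher, beside 4.72% of genes higher and 5.91% lower. Separation of 2 clones from 2 others is common here: the groups did not overlap for 34.1% of genes on the higher side and 32.0% on the lower for dKO in Jak2WT, and for 29.9% and 34.4% for dKO in Jak2V617F. Between the backgrounds these shares were 35.8% and 33.6% among GLUT1/3 WT clones and 27.5% and 33.1% among dKO clones. The comparisons share groups, so their values are not independent of each other. In bulk RNA, fewer cells with a transcript and less transcript per cell cannot be told apart.

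Eosinophil granule genes stood beside Prg2. Only Epx and Prg3 of the 10 genes listed passed the filter, while the eosinophil receptor genes Il5ra and Ccr3 reached at most 0.00805 and 0.113 FPKM and the surface marker Siglecf lay between 0.134 and 1.26. Epx, encoding eosinophil peroxidase, was at an FPKM of 41.0 and 28.4 in Jak2WT GLUT1/3 WT clones, 8.49 and 6.98 in the Jak2WT dKO clones, 0.0512 and 0.0245 in the Jak2V617F GLUT1/3 WT clones, and 0.305 and 0.768 in the Jak2V617F dKO clones. Epx fell with dKO in Jak2WT, with a log2 fold change of -2.01 ± 0.21 (SE, adjusted p = 0.00373), and was lower in Jak2V617F than in Jak2WT among GLUT1/3 WT clones, at -5.08 ± 0.21 (SE, adjusted p = 4.01e-05). Prg3, a paralog 4582 bases from Prg2 that shares none of its 31-base stretches, fell with dKO in Jak2WT (-1.67 ± 0.25, SE, adjusted p = 0.00952), and the call was lost without Jak2WT GLUT1/3 WT clone 1 or Jak2WT dKO clone 3. For dKO in Jak2V617F neither passed the threshold, with 0.55 for Epx (adjusted p = 0.0824) and 0.36 for Prg3 (adjusted p = 0.316). Their differences between the dKO comparisons did pass, at 2.56 (adjusted p = 0.00867) and 2.03 (adjusted p = 0.0184). Both genes passed the filter only through Jak2WT libraries, Prg3 only through the GLUT1/3 WT clones among them, so a lower value elsewhere was favoured by the filter.

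Secondary and tertiary granule genes follow the primary ones in neutrophil maturation. Of 18 listed, 8 passed the filter, and for Jak2V617F against Jak2WT among GLUT1/3 WT clones 6 were lower and 1 higher, beside 14.9% and 15.3% of all genes tested. The filter favours such a count, because Ltf, Mmp8 and Anxa3 stayed below an FPKM of 1 in every Jak2V617F library and passed only through the Jak2WT libraries, so the count is given as a description. Ngp (neutrophilic granule protein) was at 88.1 and 30.9 in Jak2WT GLUT1/3 WT clones and 0.229 and 0.494 in the Jak2V617F GLUT1/3 WT clones, a log2 fold change of -5.30 ± 0.72 (SE, adjusted p = 0.00251). S100a9, a calprotectin subunit, was at -4.74 ± 0.67 (SE, adjusted p = 0.00294), and Ltf, lactoferrin, at -2.91 ± 0.44 (SE, adjusted p = 0.00368). With single libraries left out, Ngp ranged from -6.04 to -4.56, S100a9 from -5.33 to -4.14 and Ltf from -3.63 to -2.19. Mmp9 (gelatinase B) was the gene that was higher. Among dKO clones 5 were lower and 0 higher (9.96% and 7.12% of all genes), but that count lay between 1 and 6 when single libraries were left out, at 1 without Jak2WT dKO clone 1 and at 2 without Jak2V617F dKO clone 1, and it was 3 with no filter on low values. With dKO, 1 of the 8 was higher (Mmp9) and 1 lower (Anxa3) in Jak2WT, beside 7.62% and 6.06% of all genes, and 0 passed in Jak2V617F (13.7% and 16.2%). Anxa3 passed the filter only through the Jak2WT GLUT1/3 WT clones, so that its lower value with dKO was favoured by the filter. Leaving out single libraries gave 0 to 1 for each of the Jak2WT counts. Mmp9 was lost without any 1 of the 4 Jak2WT or 2 Jak2V617F GLUT1/3 WT libraries, and Anxa3 without either Jak2WT GLUT1/3 WT clone or Jak2WT dKO clone 1. In Jak2V617F 1 gene was higher without dKO clone 1 of that background. Camp, Lcn2, Ly6g, Chil3 and Retnlg, also listed, did not pass the filter, and the highest value among them was 0.627 for Lcn2 in Jak2WT dKO clone 1.

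**Figure D3:**
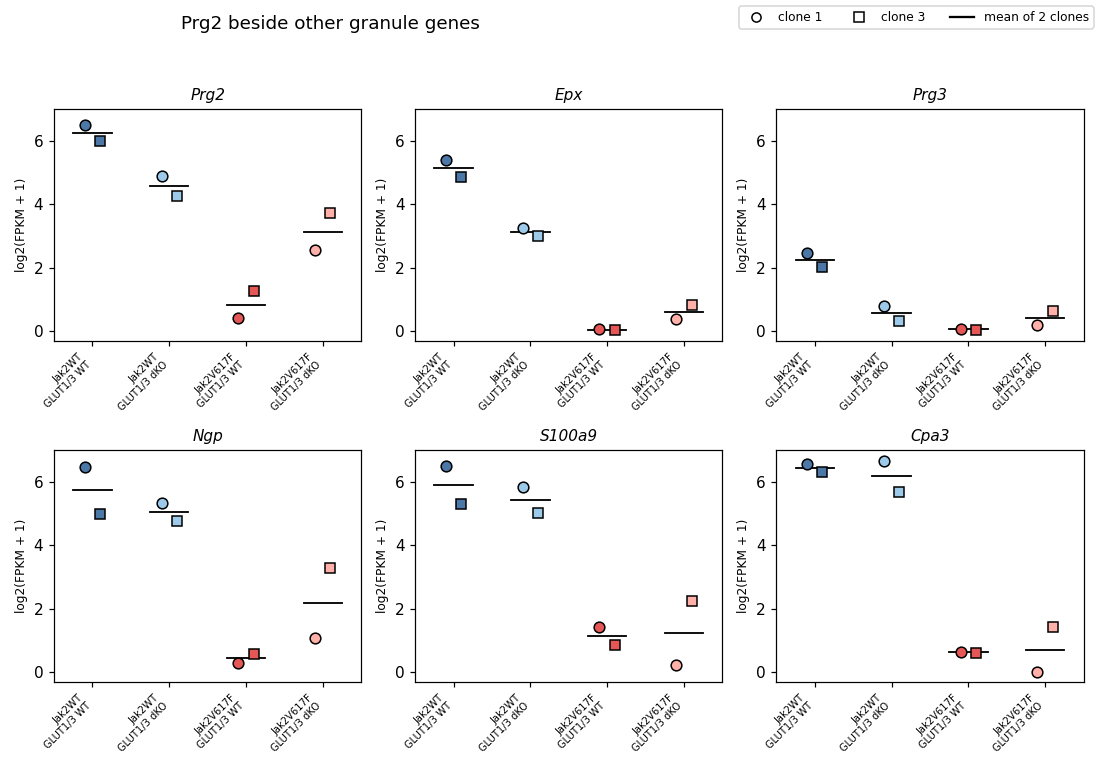
Log2(FPKM + 1) (y axes) of Prg2, Epx, Prg3, Ngp, S100a9 and Cpa3 in the 4 groups (x axis); circles are clone 1, squares clone 3 and bars the mean of the 2 clones. All 6 genes are higher in the Jak2WT GLUT1/3 WT clones than in both Jak2V617F groups, and Jak2V617F dKO clone 3 lies above clone 1 in each panel.

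Jak2V617F dKO clone 3 stood above clone 1 for Prg2 (12.2 against 4.91), Ngp (8.76 against 1.11), S100a9 (3.80 against 0.165) and Epx (0.768 against 0.305). Its summed FPKM over the secondary and tertiary list was 20.7 against 6.47, where the Jak2V617F GLUT1/3 WT clones had 8.0 and 7.24 and the Jak2WT clones 83.0 to 222. Without this library the Prg2 difference for dKO in Jak2V617F was 1.72 (adjusted p = 0.0292) in place of 2.30. Prg2 in clone 1 of that group, at 4.91, was still above both Jak2V617F GLUT1/3 WT clones.

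Markers of other blood cells moved with the groups as well. Erythroid markers summed to an FPKM of 94.0 and 112 in Jak2WT GLUT1/3 WT clones, 248 and 292 in the Jak2WT dKO clones, 913 and 554 in the Jak2V617F GLUT1/3 WT clones, and 4789 and 2609 in the Jak2V617F dKO clones, where Slc4a1, the anion exchanger of the red cell membrane, stayed at or below 0.312 in all libraries. For Jak2V617F against Jak2WT among dKO clones 7 of the 8 erythroid genes tested were higher and 0 lower, beside 7.12% and 9.96% of all genes, with Hba-a2 past the filter only through Jak2V617F libraries. Mast cell and basophil markers summed to 349 to 861 in the Jak2WT clones and 246 to 301 in the Jak2V617F clones, with 7 to 10 and 4 to 7 of the 14 genes above 0, and the tryptase genes Tpsb2 and Tpsab1 were at 0 throughout. Cpa3, mast cell carboxypeptidase, was at 50.8 to 100 in the Jak2WT libraries and at most 1.67 in the Jak2V617F libraries, a log2 fold change of -5.82 ± 0.46 (SE, adjusted p = 0.000438) among GLUT1/3 WT clones. With 1 Jak2V617F library above an FPKM of 1, Cpa3 passed the filter only through the Jak2WT libraries, which favours a lower value in Jak2V617F. Monocyte and macrophage markers summed to 39.1 to 88.5, nearly all of it Adgre1 and Ccr2, with C1qa and F13a1 at 0, and lymphoid markers to at most 0.983. What part these markers have in the values of Prg2, Lyz2 or Cst7 was not tested.

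Genes for the processing, packing and inhibition of granule proteases included called genes in both backgrounds. Of 16 listed genes 14 were tested. With dKO, 3 were higher and 3 lower in Jak2WT (7.62% and 6.06% of all genes, median 0.051, all genes 0.0082), and 2 higher and 7 lower in Jak2V617F (13.7% and 16.2% of all genes, median -0.43, all genes -0.019). When single libraries were left out, the Jak2WT counts ranged from 0 to 3 in each direction, with at most 1 without any of the 4 Jak2WT libraries. The Jak2V617F counts ranged from 1 to 4 higher, with 4 without Jak2V617F dKO clone 1 and 1 without any of the other 3 Jak2V617F libraries, and from 6 to 7 lower. Ctsc, encoding cathepsin C, the protease that Cst7 inhibits, was at 63.7 and 58.9 in the Jak2V617F GLUT1/3 WT clones and 42.9 and 35.0 in the dKO clones, and it fell (-0.65 ± 0.11, SE, adjusted p = 0.00543). In Jak2WT it was at 58.1 and 57.6 in GLUT1/3 WT clones and at 70.4 and 64.6 in dKO clones, a log2 difference of 0.22 with an adjusted p of 0.221. The ratio of Ctsc to Cst7 FPKM, each per length, was 3.14 and 3.09 in Jak2WT GLUT1/3 WT clones, 2.43 and 2.54 in the Jak2WT dKO clones, 1.90 and 2.56 in the Jak2V617F GLUT1/3 WT clones, and 0.675 and 0.600 in the Jak2V617F dKO clones. Among the 8 libraries, Cst7 FPKM exceeded Ctsc FPKM only in the 2 Jak2V617F dKO clones. That order depends on the listed gene lengths, 5808 bases for Ctsc and 986 for Cst7. In reads, the Jak2V617F dKO group held 13782 for Ctsc and 3625 for Cst7.

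Lgmn encodes legumain, a lysosomal cysteine protease. It was at 158 and 130 in the Jak2V617F GLUT1/3 WT clones, against 19.1 and 19.5 in Jak2WT GLUT1/3 WT clones (2.83 ± 0.18, SE, adjusted p = 0.000192), and it fell to 25.6 and 21.0 in the Jak2V617F dKO clones, a log2 fold change of -2.58 ± 0.18 (SE, adjusted p = 0.000383). Serpinb1a, an inhibitor of elastase, cathepsin G and proteinase 3, was at 7.24 and 4.83 in Jak2WT GLUT1/3 WT clones and rose to 110 and 66.0 with dKO (3.64 ± 0.67, SE, adjusted p = 0.0169), a call lost in 6 of 17 alternatives. In Jak2V617F it was at 0.385 and 0.626 in the GLUT1/3 WT clones and 0.225 and 5.39 in the dKO clones. Serpina3g, a serpin, was at 2.84 and 6.25 in the Jak2V617F GLUT1/3 WT clones and 13.1 and 77.4 in the dKO clones, and it rose with dKO (2.66 ± 0.72, SE, adjusted p = 0.0305), a call lost in 6 of 17 alternatives. Without Jak2V617F dKO clone 3 the Serpina3g value was 1.42, and the call was lost without that library and without either Jak2V617F GLUT1/3 WT clone, with the highest adjusted p, 0.144, without GLUT1/3 WT clone 1.

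**Figure D4:**
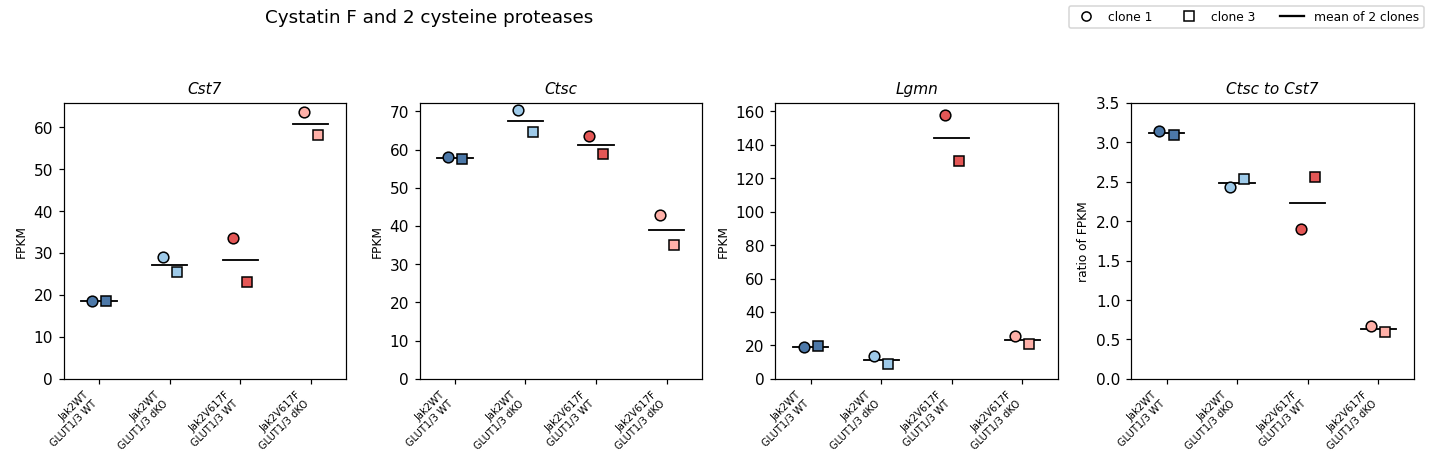
FPKM of Cst7, Ctsc and Lgmn and the ratio of Ctsc to Cst7 (y axes, starting at 0) in the 4 groups (x axis); circles are clone 1, squares clone 3 and bars the mean of the 2 clones. Cst7 is highest and Ctsc lowest in the Jak2V617F dKO clones, where the ratio is 0.675 and 0.600 against 1.90 or more elsewhere.

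Azurophil granules share many hydrolases and membrane proteins with lysosomes. For Jak2V617F against Jak2WT among GLUT1/3 WT clones 7 of the 14 genes tested were higher and 3 lower (15.3% and 14.9% of all genes), with a median of 0.25 (all genes 0.0076), and for dKO in Jak2V617F 0 were higher and 6 lower (13.7% and 16.2% of all genes), with a median of -0.33 (all genes -0.019). After scaling to the same total these counts were 6 and 3, where all 11818 genes gave 1223 higher and 2930 lower in place of 1812 and 1765, and 0 and 4, where all genes gave 2192 and 1452 in place of 1614 and 1919. With single libraries left out, the 7 higher between backgrounds became 4 to 7, with 4 without Jak2WT GLUT1/3 WT clone 3, the 3 lower became 2 whichever library was left out, and the 6 lower with dKO became 3 to 6, with 3 without clone 1 of either Jak2V617F group. The members that fell with dKO in Jak2V617F included Lamp2, a lysosomal membrane protein (-0.91), and the hydrolases Glb1 (-0.73), Ctsb (-0.59) and Hexa (-0.36). In Jak2WT 2 were higher with dKO, Lamp1 and Cd68, and 0 lower (7.62% and 6.06% of all genes), and neither call was left without any 1 of the 4 Jak2WT libraries. Bpi, an antibacterial azurophil protein, stayed at or below an FPKM of 0.284.

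**Figure D5:**
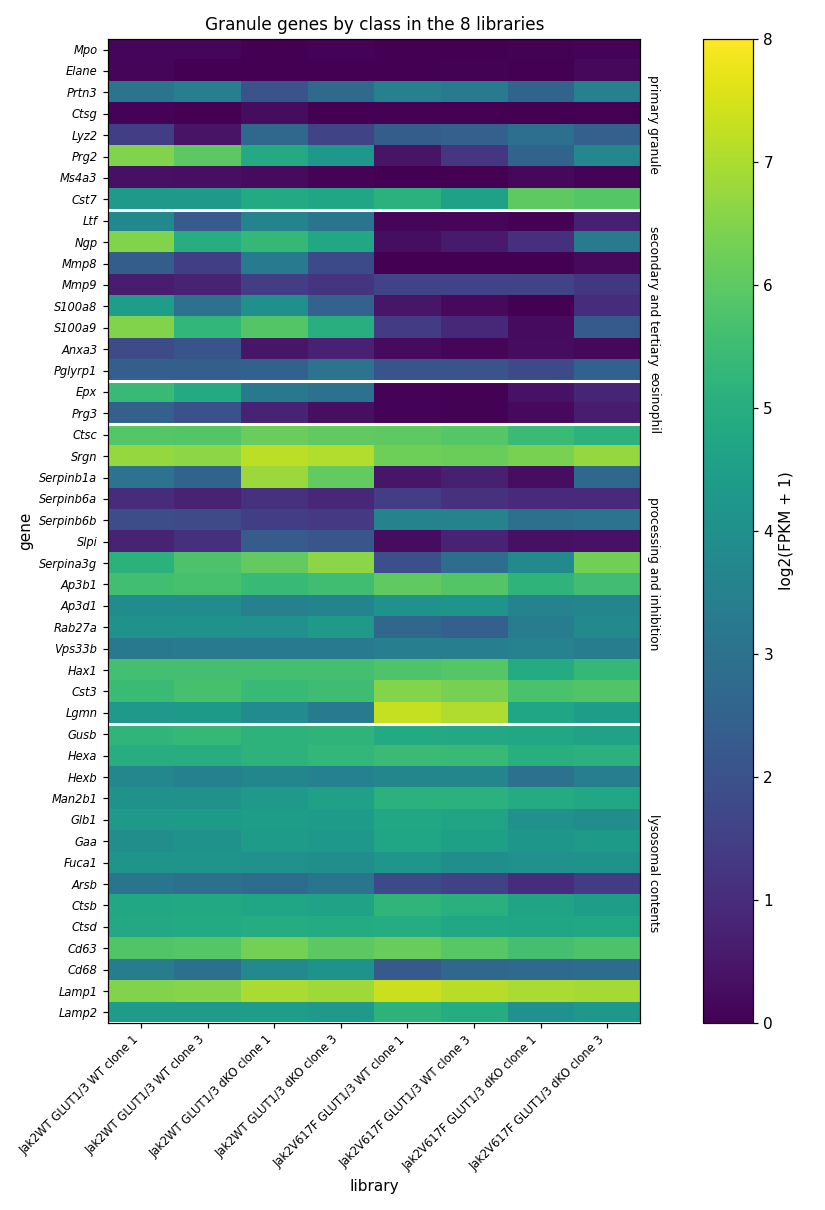
Log2(FPKM + 1) (colour, 0 to 8) of the 8 primary granule genes and of the genes past the filter in 4 related lists (rows) in the 8 libraries (columns). Mpo, Elane, Ctsg and Ms4a3 are dark in every library, Ngp, S100a9 and Epx are brighter in the 4 Jak2WT libraries than in the 4 Jak2V617F libraries, and Lgmn is brightest in the Jak2V617F GLUT1/3 WT libraries.

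Regulators that drive primary granule genes were unevenly represented. Cebpa, which starts the granulocyte programme, was listed at 0 in all 8 libraries, and Gfi1, a repressor needed for neutrophil maturation, stayed at or below an FPKM of 0.0872, whereas Spi1 (PU.1) was at 11.1 to 19.8 and Myb at 15.1 to 43.5. Cebpe, the factor of the secondary granule stage, was at 44.2 and 41.9 in Jak2WT GLUT1/3 WT clones, 31.5 and 28.1 in the Jak2WT dKO clones, 18.0 and 16.3 in the Jak2V617F GLUT1/3 WT clones, and 4.20 and 6.80 in the Jak2V617F dKO clones. It was lower in Jak2V617F among GLUT1/3 WT clones (-1.28 ± 0.18, SE, adjusted p = 0.00265) and fell with dKO in Jak2V617F (-1.51 ± 0.18, SE, adjusted p = 0.00144). Spi1 and Myb fell with dKO in Jak2V617F too (-0.59 ± 0.12, SE, adjusted p = 0.0124, and -0.77 ± 0.19, SE, adjusted p = 0.0204), calls that were lost in 2 and 4 of 17 alternatives. Of the 10 listed factors tested, 3 were higher and 4 lower in that comparison (13.7% and 16.2% of all genes), and 1 and 1 with dKO in Jak2WT (7.62% and 6.06%). In Jak2V617F the count higher was 2 whichever single library was left out, and the count lower was 2 to 4, with 2 without either Jak2V617F GLUT1/3 WT clone. With only the groups compared these counts were 0 and 1. The Jak2WT counts ranged from 0 to 2 in each direction, at 0 without any 1 of the 4 Jak2WT libraries and at 2 without either Jak2V617F dKO clone.

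Of 15 listed receptors and markers of granulocyte progenitors, 7 passed the filter. Among the others, Csf3r, the receptor of granulocyte colony-stimulating factor, was at or below an FPKM of 0.022 and Kit at 0. The IL-3 and GM-CSF receptor subunits Csf2rb and Csf2rb2 were at 114 to 190 and 136 to 236 in the Jak2WT libraries. In Jak2V617F both fell with dKO, Csf2rb from 127 and 131 to 55.4 and 48.9 and Csf2rb2 from 157 and 161 to 62.5 and 56.2. These 2 genes are near copies, so reads may be split between them. Of the 7 receptor and marker genes tested, 0 were higher and 3 lower with dKO in Jak2V617F (13.7% and 16.2% of all genes), and 0 and 0 in Jak2WT (7.62% and 6.06%).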

How the data were processed

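RNA from 8 clones was sequenced after poly A selection. The authors trimmed reads with fastp 1.0.1, aligned them to mm39 with HISAT2 2.2.1 and counted them with featureCounts 2.0.6, and deposited FPKM values for 56748 genes. The annotation version, strand setting and total behind the FPKM are not given in the sources used here. Whole reads were recovered from 100% of values (tolerance 0.01 of the step of 1 read), which gave 16846011 to 48884329 reads per library. Intervals and floors of 3 reads cover counting error only.

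From the deposited FPKM, log2(FPKM + 1) was fitted with limma 3.58.1 (R 4.3.3, trend) as 4 group means over all 8 libraries, for genes at 1 FPKM or more in 2 or more libraries. Fold changes are on this scale and understate those of low genes. P-values were two-sided, Benjamini-Hochberg adjusted over 11818 genes, with a threshold of 0.05, and measure only the spread between clones. An exact permutation test of 2 against 2 cannot go below 0.33. The members and gene lists were chosen with earlier results of these data known. Named genes could be the members, Slc2a1, Slc2a3, Lyz1, any listed gene and, for each member that passed the filter the 2 genes of nearest pattern. Plppr3 and Tspoap1, neighbours of members, fall outside this rule and were chosen after their values were seen. Gene models came from GENCODE vM39 (GRCm39) and promoters from RefSeq. The fit was tested on simulated data. Alternatives were another pseudocount, filters, scalings, voom, no trend, only the groups compared, a clone block and leaving out each library. Figures were drawn with matplotlib 3.10.9. A further element shared by all groups and some listed genes are not reported here.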

Additional observations from a re-analysis of the deposited data

Results flagged for a closer look

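The effect of GLUT1/3 loss differed between the Jak2 backgrounds, by the interaction term of the limma fit, for 1 of the 4 primary granule genes tested and 19 of the 68 other listed genes tested, where 4.72% of all genes were called higher and 5.91% lower. The number of calls depended on which single library was left out of the fit. Over all genes, 558 calls were higher and 698 lower with all 8 libraries. Few were left without either Jak2WT GLUT1/3 WT clone or without Jak2WT dKO clone 1. The number changed least without either Jak2V617F dKO clone. Leaving out a library leaves 1 clone in its group, so the power of the fit falls as well. Some of the called members and listed genes passed the filter on low values only through groups where they are high, which favours a difference. These were Epx and Slpi through Jak2WT libraries, Prg3 and Anxa3 through the Jak2WT GLUT1/3 WT clones, and Fcgr3 through Jak2V617F libraries. A value above 0 means that the dKO difference was more positive in Jak2V617F than in Jak2WT. Prg2 had the largest of these log2 differences, at 3.96 (adjusted p = 0.0156), falling in both Jak2WT dKO clones and rising in both Jak2V617F dKO clones. The eosinophil granule genes Epx and Prg3 were at 2.56 (adjusted p = 0.00867) and 2.03 (adjusted p = 0.0184). Anxa3 was at 1.37 (adjusted p = 0.0216) and Rab27a, which moves granules to the membrane, at 0.93 (adjusted p = 0.0484).

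The other 15 were below 0. Among protease processing, packing and inhibition genes, Lgmn was at -1.84 (adjusted p = 0.0130), Slpi at -1.43 (adjusted p = 0.0314), Ctsc at -0.87 (adjusted p = 0.0202), Hax1 at -0.75 (adjusted p = 0.0401) and Cst3 at -0.59 (adjusted p = 0.0428). Among lysosomal genes, Lamp2 was at -0.92 (adjusted p = 0.0184), Glb1 at -0.82 (adjusted p = 0.0116), Lamp1 at -0.71 (adjusted p = 0.0262), Gaa at -0.64 (adjusted p = 0.0358) and Hexa at -0.62 (adjusted p = 0.0206). Fcgr3 was at -1.71 (adjusted p = 0.0377), Adgre1 at -1.66 (adjusted p = 0.0154), Cebpe at -0.99 (adjusted p = 0.0484), Csf2rb2 at -0.94 (adjusted p = 0.0360) and Csf2rb at -0.87 (adjusted p = 0.0401). For Man2b1, Ctsd and Cd63 both dKO clones also moved opposite ways in the backgrounds, up in Jak2WT and down in Jak2V617F, with adjusted p of 0.0514, 0.279 and 0.0695 for the difference.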

How the results depend on the processing

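The dKO counts in Jak2V617F (2 higher, 0 lower) held in all 17 alternatives. For dKO in Jak2WT the count higher became 1 with only the groups compared (Cst7) or with a replicate block on clone number (Lyz2, adjusted p = 0.0409), and 0 to 1 with single libraries left out; the count lower became 0 with a pseudocount of 0.1, no filter, no trend or the block, and 0 to 1 without single libraries. For Jak2V617F against Jak2WT among GLUT1/3 WT clones the count higher was 0 with no filter or voom, 1 with only the groups compared and 0 to 2 without single libraries, and the count lower was 2 with no filter (Ms4a3). Among dKO clones the count lower was 1 with voom and 0 to 1 without single libraries. For the difference between the dKO comparisons the count higher was 0 with no filter, 2 after scaling to the same total, 2 with voom and 0 to 2 without single libraries. All genes moved too in that comparison, from 558 higher of 11818 to 165 of 25788 with no filter, 1177 with the same total and 1321 with voom. Prtn3 turned direction, though never past the threshold, for Jak2V617F among GLUT1/3 WT clones at -0.011 with the same total and -0.047 to 0.30 without single libraries, and for dKO in Jak2V617F at -0.82 to 0.10 without single libraries. Lyz2 among dKO clones ranged from -0.0025 to 1.06. The causes were not tested. Deviations of same-numbered clones correlated at -0.25 to 0.15. Such values cannot show whether same-numbered clones shared a preparation. The block gave 742 higher and 581 lower calls over all genes in place of 901 and 716 for dKO in Jak2WT. With 2 clones a group and 8 to 56 reads for Mpo, Elane, Ctsg and Ms4a3, differences in these 4 genes were mostly below what the depth can show.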

Other observations

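Genes whose pattern over the 8 libraries was nearest to that of a member were ranked by the root mean square difference between centred log2(FPKM + 1) values, as a description. Nearest to Prg2 were Ngp at 0.646 and Epx at 0.723, where the values of Prg2 itself had a root mean square of 2.03. Sla2 (0.144) and Soga1 (0.166) were nearest to Cst7 (0.621), Fgd3 (0.273) and Scamp5 (0.348) to Lyz2 (0.768), and the non-coding Gm48689 (0.217) and Gm26461 (0.248) to Prtn3 (0.489).

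Tspoap1 lies 7652 bases from the near-silent Mpo on the same strand. Its mean FPKM was 1.11 in Jak2WT GLUT1/3 WT clones, 13.9 in Jak2WT dKO clones, 4.43 in Jak2V617F GLUT1/3 WT clones and 5.62 in Jak2V617F dKO clones. It was chosen after its values were seen.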
